A study of Mus musculus with 35 samples.

Results

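Akt kinases relay insulin, growth factor and Kit signals inside the cell. Receptors recruit phosphoinositide 3-kinase (PI3K), whose lipid product brings Akt to the membrane, where Pdpk1 and the mTOR complex that holds Rictor phosphorylate it. Active Akt in turn keeps Foxo transcription factors out of the nucleus and inhibits Gsk3 kinases, and in the testis Foxo1 is known for its place in spermatogonia. The 8 genes described here are Pik3ca (the alpha catalytic subunit of PI3K), Pdpk1 (the kinase that phosphorylates the activation loop of Akt), Akt1, Akt2, Mtor (the kinase of both mTOR complexes), Rictor (the scaffold of the second complex), Foxo1 and Gsk3b.

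Members were all probe sets annotated to these 8 symbols on 2 array types, each probe set read on its own. The day 15 array (MoGene 1.0 st v1) holds 9 of them among 35556 probe sets and the day 25 array (Mouse Genome 430 2.0) holds 33 among 45101. All 9 of day 15 and 31 of the 33 of day 25 passed the filter on low values; Pik3ca 1440054_at and Foxo1 1456529_at lay above the filter level of 4.76 in 0 of 17 arrays and were not tested.

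The arrays measured RNA of whole testis of male C57BL6 mice, 1 mouse to an array. Akt1 wild type, heterozygous and homozygous mice were either exposed to 6-N-propylthiouracil (PTU), a neonatal goitrogen in the study title that blocks thyroid hormone synthesis, or left unexposed, and were taken at postnatal day 15 (18 arrays) or day 25 (17 arrays). Every group has 3 arrays except the exposed homozygous group of day 25, which has 2, since the authors left out 1 array of poor quality. Homozygous is the label of the Akt1-/- mice of the design. The labels give neither the altered part of Akt1, nor the PTU dose, nor litters or batches, so a signal from an Akt1 probe set does not check a genotype label. Values are RMA log2 intensities, differences are log2 differences with limma's moderated standard error, and a probe set was called at a Benjamini-Hochberg adjusted p under 0.05 over all probe sets tested at that age. In whole testis, fewer cells of a type and less RNA per cell cannot be told apart.

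Some arrays stood apart. At day 15, Spink8, an epididymal gene, lay above 7 in unexposed wild type arrays 2 and 3 (9.38 and 7.91) and exposed homozygous array 2 (8.74), and 6 arrays, all heterozygous or homozygous, formed a second array set by their unnamed bright probe sets. At day 25, both exposed homozygous arrays had a mean over 5 spermatid markers of 5.44 to 5.87, against 7.87 to 13.51 in the others, with all 5 markers lower than in unexposed homozygous arrays. Their spermatocyte mean was 10.62 to 11.96 (others 12.27 to 12.55), their Leydig cell mean 7.62 to 7.63 (others 9.3 to 10.91) and their spermatogonia mean 8.93 to 9.45 (others 7.8 to 8.36). Of the 7 spermatocyte markers, 2 were higher and 4 lower than in unexposed homozygous arrays, and 2 higher and 5 lower than in exposed wild type arrays. Both exposed homozygous arrays also held the extremes of the peritubular mean (11.67 to 11.74, others at most 11.14, with 2 of 2 markers higher than in either comparison group), the epididymis mean (6.75 to 7.19, others at most 6.72), the macrophage mean (7.57 to 7.71, others at least 7.76) and the mean of 2 blood markers, of which Hba-a1 lay below the filter (5.26 to 5.42, others at least 5.93). Of 3 epididymis markers tested, however, 1 was higher and 1 lower than in unexposed homozygous arrays, and likewise against exposed wild type arrays. The fat mean was 7.51 to 8.67 in exposed against 5.35 to 5.63 in unexposed homozygous arrays, with 2 of 3 markers called higher. In exposed wild type arrays it was 6.5 to 10.15, and 0 of 3 markers differed from exposed homozygous arrays. All 6 spermatogonia and all 7 Sertoli cell markers of the lists were detected at day 25. The beta-actin 3' minus 5' difference, a measure of RNA and labelling quality, was 0.95 to 1.44 in the homozygous arrays of day 25 and 0.55 to 0.78 in all others. These values moved with the groups compared below, and their part in the differences was not tested beyond the fits without those arrays or with that covariate. The actin difference split the homozygous arrays of day 25 from all others. The Gapdh 3' minus 5' difference did not. It read 0.18, -0.11 and 0.29 in unexposed and -0.11 and 0.21 in exposed homozygous arrays, and -0.23 to 0.09 in all others. Gapdh was not used as a covariate. In contrasts across the actin split, the covariate fit cannot separate RNA quality from genotype.

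Akt1 is the gene altered in these mice. At day 15 its only probe set, 10402766, read 9.34, 9.48 and 9.71 in unexposed wild type, 9.52, 9.96 and 9.7 in unexposed heterozygous and 9.4, 9.23 and 9.04 in unexposed homozygous testes. With PTU it read 9.92, 9.95 and 10.09 in wild type, 8.83, 9.79 and 9.67 in heterozygous and 9.74, 9.01 and 9.18 in homozygous testes. Exposed wild type had the highest readings but for 1 heterozygous array, and homozygous and wild type arrays overlapped when both exposures were pooled. Averaged over exposure, the homozygous mean was 0.48 ± 0.15 below wild type (log2 difference -0.48, adjusted p = 0.0287). Without the 3 Spink8 arrays, where only array 1 of unexposed wild type is left, the difference was -0.32. With the array set as a block it was -0.45 (adjusted p = 0.0906).

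At day 25, 4 probe sets read Akt1 and did not move alike. The brightest, 1416657_at, lay between 9.17 and 9.55 in all 17 arrays and was called in none of the 11 contrasts. Probe set 1425711_a_at read 9.13, 8.92 and 8.93 in unexposed wild type, 8.75, 8.74 and 8.28 in unexposed heterozygous and 8.18, 8.43 and 8.04 in unexposed homozygous testes. With PTU it read 8.99, 9.33 and 8.93, then 8.78, 8.91 and 8.6, then 8.56 and 8.01 in the same order of genotypes. Every homozygous and every heterozygous array lay below every wild type array. The homozygous minus wild type difference averaged over exposure was -0.79 ± 0.13 (adjusted p = 0.000363), the heterozygous one -0.36 ± 0.12 (adjusted p = 0.0491) and the homozygous minus heterozygous one -0.43 ± 0.13 (adjusted p = 0.01). With beta-actin 3' minus 5' as a covariate the first was -0.07 (adjusted p = 0.964) and the last turned to 0.18. For these contrasts of homozygous arrays, that fit cannot separate RNA quality from genotype. The heterozygous call was lost in 14 of its 20 alternatives.

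Set against the brightest Akt1 probe set within each array, 1425711_a_at lay at a mean difference of -1.17 ± 0.24 (SD, n = 5) in homozygous and of -0.72 ± 0.12 (SD, n = 6) in heterozygous arrays, against -0.45 ± 0.15 (SD, n = 6) in wild type. Both changes, -0.73 and -0.28, had p = 0.005 in exact 2-sided permutation tests within exposure, or 0.015 after adjustment over 6 tests. That unadjusted p is the smallest that either test can give, so the equal values do not rank the changes. The adjusted permutation p of the homozygous change was not under 0.05 without exposed wild type array 1 or 2, at differences of -0.76 and -0.67. It was 0.0501 in both, adjusted from a rounded p. The heterozygous one was not under 0.05 without exposed wild type array 2 (0.0501, likewise after rounding, at -0.22). Without exposed homozygous array 2, which leaves 1 array in that group, the homozygous change was -0.57. Without either wild type array only 120 exchanges remain, and the unadjusted homozygous p of 0.0167 is the smallest that they can give. The probe sets thus changed unequally across genotypes, and this comparison does not say which of them follows Akt1 RNA. These tests used no actin covariate, and the homozygous arrays stood apart in the actin difference. The homozygous change therefore cannot be separated from RNA quality. Of the dimmer pair, 1440950_at was called in no contrast, and 1442759_at read 5.46, 5.51 and 5.55 in unexposed against 5.17 and 4.76 in exposed homozygous testes (-0.55 ± 0.18, adjusted p = 0.0128).

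**Figure D1:**
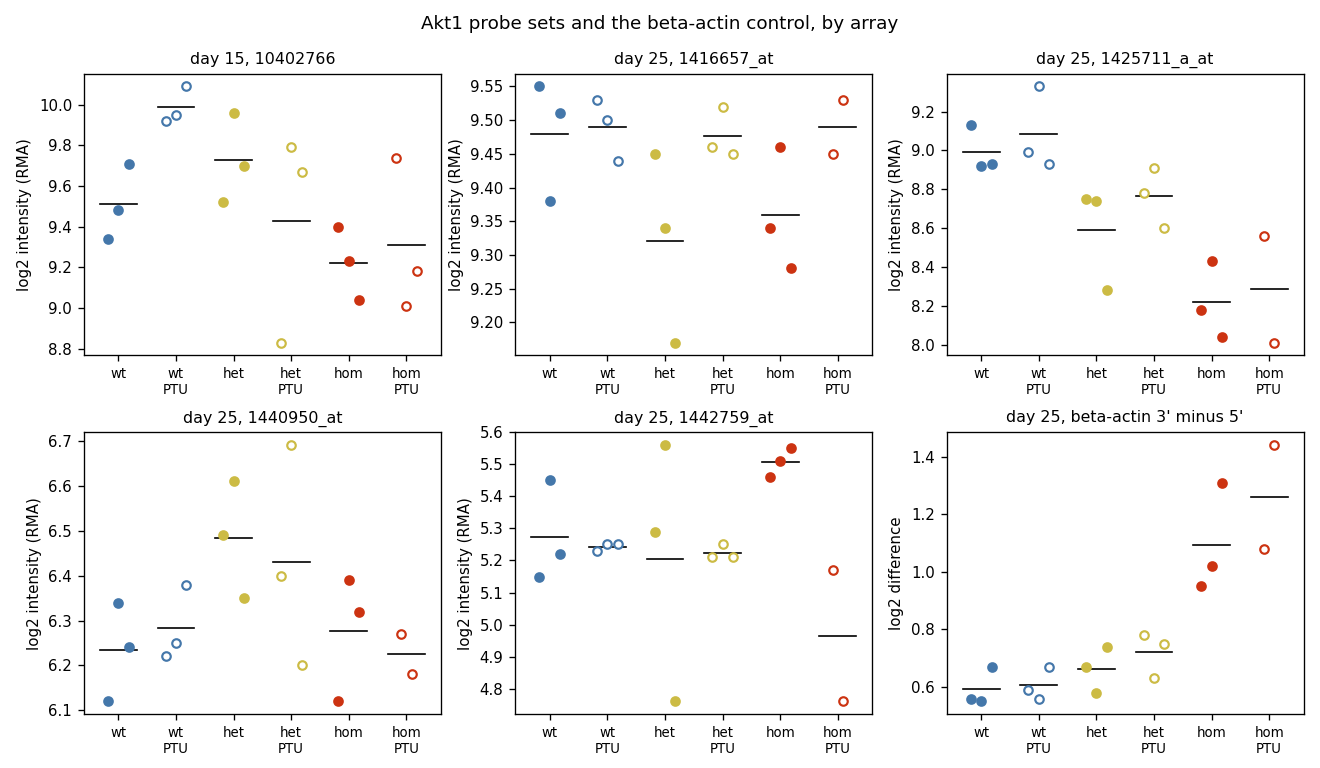
Log2 intensity of each Akt1 probe set at both ages, and the beta-actin 3' minus 5' difference of day 25, by array. Points are arrays (open with PTU), lines group means, and the vertical axes differ between panels; 1416657_at stays between 9.17 and 9.55, 1425711_a_at is lowest in the homozygous groups, and the actin difference is 0.95 or more only there.

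The genes most like each Akt1 probe set were taken by Pearson correlation over all arrays of an age, which share group structure and, at day 25, the exposed homozygous arrays. For 10402766 over 18 arrays they were Nptx2 (0.782), Gpr155 (0.782) and Slc30a4 (0.736). Over 17 arrays of day 25, 1416657_at was most like Zbtb7a (0.892), Mmp14 (0.888) and Nt5dc2 (0.884), and 1425711_a_at most like Fbxo9 (0.965), Shoc2 (0.962) and Mknk2 (0.951). For 1440950_at they were Myadml2 (0.895), Tmem132e (0.829) and Dvl3 (0.819), and for 1442759_at Antxr1 (0.902), Abhd17a (0.884) and Serf2 (0.857). None of the 4 probe sets of day 25 shared a nearest gene.

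The promoter of Akt1 is shown with those of Foxo1, Pik3ca and Rictor, the genes whose probe sets rose together in exposed homozygous testes of day 25. The bases end just before each gene's outermost start in RefSeq on GRCm38.p6 and are printed 5′ to 3′ on the gene's strand. Capitals mark the forkhead core GTAAACA or its reverse TGTTTAC, the element that Foxo proteins bind. The windows are chr12:112674885-112675134 (minus strand) for Akt1, chr3:52268087-52268336 (plus) for Foxo1, chr3:32396815-32397064 (plus) for Pik3ca and chr15:6708131-6708348 (plus) for Rictor.
Akt1: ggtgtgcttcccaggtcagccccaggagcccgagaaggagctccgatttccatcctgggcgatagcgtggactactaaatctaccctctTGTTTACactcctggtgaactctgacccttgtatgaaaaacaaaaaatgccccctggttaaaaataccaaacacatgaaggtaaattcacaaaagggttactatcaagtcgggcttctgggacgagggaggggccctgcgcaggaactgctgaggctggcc
Foxo1: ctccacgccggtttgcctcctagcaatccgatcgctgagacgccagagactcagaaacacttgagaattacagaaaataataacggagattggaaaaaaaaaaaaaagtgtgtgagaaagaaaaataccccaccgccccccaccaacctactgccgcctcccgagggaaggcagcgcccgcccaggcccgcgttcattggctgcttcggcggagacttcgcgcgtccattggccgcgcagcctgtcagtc
Pik3ca: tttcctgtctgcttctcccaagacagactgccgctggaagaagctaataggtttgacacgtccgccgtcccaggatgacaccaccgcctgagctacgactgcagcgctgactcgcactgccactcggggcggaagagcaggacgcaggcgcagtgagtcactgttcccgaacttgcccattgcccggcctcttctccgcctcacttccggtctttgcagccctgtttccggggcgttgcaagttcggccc
Rictor: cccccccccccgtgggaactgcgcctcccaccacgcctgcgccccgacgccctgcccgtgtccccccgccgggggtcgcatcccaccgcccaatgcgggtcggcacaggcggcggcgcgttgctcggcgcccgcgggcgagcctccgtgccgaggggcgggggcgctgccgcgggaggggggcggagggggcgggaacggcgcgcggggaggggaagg
The Akt1 window holds 1 match, starting 161 bases before the gene start, and the other 3 hold 0. Of the 13 RefSeq windows of 300 bases that the 8 genes have, 1 held the motif on either strand, and 3.65% of all 32851 windows did. A match describes letters in a window and no more.

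At day 15, 1 of 9 member probe sets was higher and 0 lower in unexposed homozygous than in unexposed wild type testes, a contrast in which 28.6% of all 18307 probe sets tested were called. The median difference was 0.11 for members and 0.08 for all. The called member was Foxo1, the forkhead factor that Akt phosphorylates. Its probe set 10491962 read 9.23, 9.22 and 9.23 in unexposed wild type and 9.78, 9.71 and 9.43 in unexposed homozygous testes. The groups did not overlap, and the difference was 0.41 ± 0.10 (adjusted p = 0.00405).

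The PTU effect on Foxo1 differed between wild type and homozygous testes. In exposed wild type it read 9.56, 9.62 and 9.58, all above the unexposed arrays (0.36 ± 0.10, adjusted p = 0.0184), and it was the only member called of 9, where 15.3% of all probe sets were; the call was lost without unexposed array 1 or 3 or exposed array 2 or 3. In exposed homozygous testes it read 9.35, 9.29 and 9.32, all below the unexposed ones, with a difference of -0.32 ± 0.10 that missed the threshold (adjusted p = 0.0679). The difference of the PTU effects was -0.68 ± 0.14 (adjusted p = 0.00349), with 1 of 9 members and 16.4% of all probe sets called. Heterozygous arrays read 9.36, 9.45 and 9.42 unexposed and 9.35, 9.56 and 9.22 exposed, and these overlapped. These contrasts share the unexposed wild type arrays, of which arrays 2 and 3 carried the Spink8 signal. Without the Spink8 arrays, where only array 1 of unexposed wild type is left, the 3 differences were 0.41, 0.35 and -0.65.

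The spermatogonia markers (Zbtb16, Gfra1, Ret, Kit, Stra8, Dmrt1) were higher in both contrasts that called Foxo1 higher. Their mean was 9 to 9.13 in unexposed wild type, 9.38 to 9.58 in exposed wild type and 9.47 to 9.66 in unexposed homozygous testes, with 4 of 6 markers called higher in each of the 2 contrasts. In exposed homozygous testes it was 9.42 to 9.65 and overlapped the unexposed ones, with 0 of 6 markers called, although 3 of 6 were lower in the difference of the PTU effects (median -0.48). Of 6 Sertoli cell markers 4 were higher in unexposed homozygous (median 0.4) and 3 in exposed wild type testes (0.33), 1 was lower with PTU in homozygous testes (-0.23), and 3 were lower in the difference of the PTU effects (-0.42).

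Spermatocyte markers differed most. Their mean was 9.82 to 10.23 in unexposed and 8.3 to 9.07 in exposed wild type, and 7.44 to 8.14 in unexposed and 8.04 to 8.88 in exposed homozygous testes. All 7 were lower in unexposed homozygous than in wild type testes (median -1.58), 4 of 7 were lower with PTU in wild type (-0.95) and 5 of 7 were higher in the difference of the PTU effects (1.39), the reverse of Foxo1 in each. Averaged over exposure 7 of 7 were lower in homozygous testes (-0.88), the contrast that called Akt1 and Pdpk1, and 3 of 7 were lower with PTU averaged over genotypes (-0.27), the contrast that called Akt2. The part of these 3 cell types in the member differences of day 15 was not tested.

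**Figure D2:**
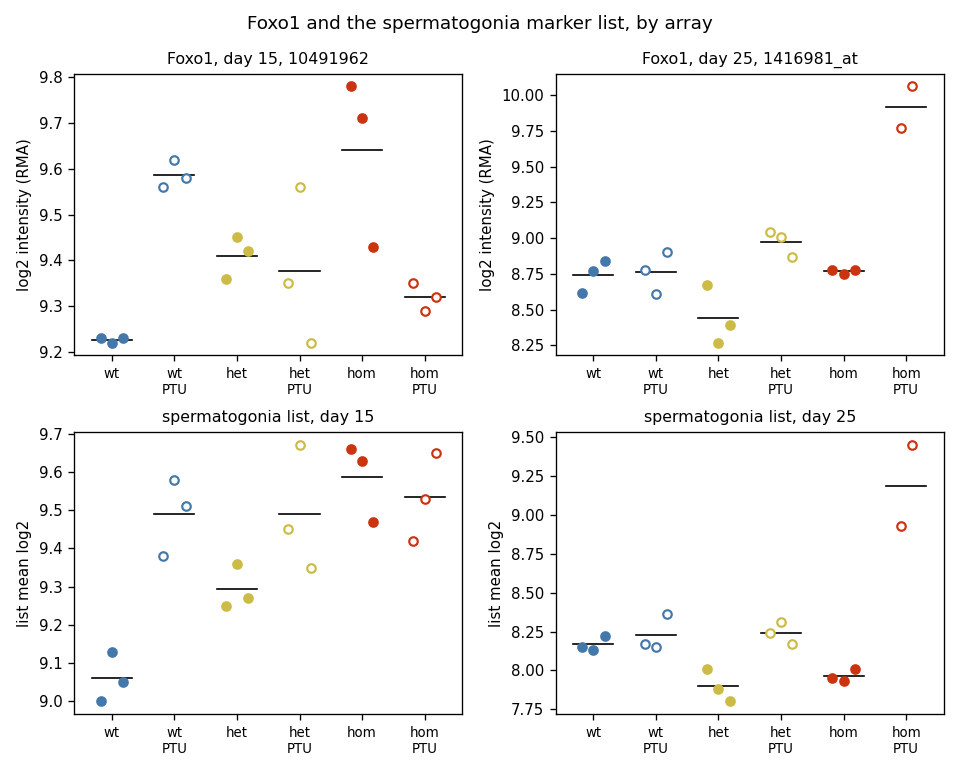
Foxo1 (top) and the mean of 6 spermatogonia markers (bottom) by array at day 15 (left) and day 25 (right), in log2 intensity; points are arrays (open with PTU) and lines group means. At day 15 unexposed wild type arrays read 9.22 to 9.23 for Foxo1 and 9 to 9.13 for the markers, and at day 25 the 2 exposed homozygous arrays are highest in both.

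Averaged over exposure, 0 of 9 members were higher and 2 lower in homozygous than in wild type testes at day 15, with 28.1% of all probe sets called. They were Akt1, described above, and Pdpk1, and the count was 0 to 1 without any single array of 9 of the 12, 5 without exposed homozygous array 1, and 2 without either of the other arrays. Pdpk1 10448424 read 10.29, 10.2 and 10.29 in unexposed and 10.36, 10.23 and 10.31 in exposed wild type, against 10.06, 10.16 and 10.02 in unexposed and 10.23, 10.14 and 9.77 in exposed homozygous testes. Unexposed arrays did not overlap, but exposed array 1 of the homozygous group reached the wild type range. The difference was -0.22 ± 0.08 (adjusted p = 0.0446), and it was lost in 13 of 21 alternatives, for example at -0.13 (adjusted p = 0.205) with the array set as a block.

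PTU averaged over genotypes lowered 1 of 9 members and raised 0 at day 15, where 11.9% of all probe sets were called. Akt2 10374364 read 11.24, 11.23 and 11.17 in unexposed and 11, 10.98 and 11.02 in exposed heterozygous testes. In homozygous testes it read 11.31, 11.34 and 11.12 unexposed and 10.96, 11.05 and 11.07 exposed, and in wild type 11.06, 11.1 and 10.99 against 11.02, 10.97 and 10.93. The heterozygous and homozygous arrays were separated by exposure and the wild type arrays overlapped. The averaged difference was -0.17 ± 0.04 (adjusted p = 0.0194). It was -0.18 without the Spink8 arrays, where only array 1 of unexposed wild type is left. The second Akt2 probe set, 10551393, differed by -0.13 ± 0.05 (adjusted p = 0.124).

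The other contrasts of day 15 called no member. With limma, 0 of 9 passed in homozygous minus wild type with PTU (0% of all, although 4691 of all and 4 of 9 members had an unadjusted p under 0.05) and in homozygous minus heterozygous (0% of all, 2612 of all and 1 member unadjusted). Heterozygous minus wild type gave 0 of 9 beside 0.94% of all, and 1 member had an unadjusted p under 0.05. PTU gave 0 of 9 in heterozygous (0.546% of all, 2 members unadjusted) and in homozygous testes (4.33% of all, 4 members unadjusted), and the heterozygous interaction 0 of 9 (0.426% of all, 2 members unadjusted). Mtor, Rictor, Pik3ca and Gsk3b were called in no day 15 contrast. Mtor 10510305 came nearest, at 0.20 ± 0.06 below unexposed when PTU was averaged over genotypes (-0.20, adjusted p = 0.0505). Over all 18 arrays Rictor stayed between 10.1 and 10.54, Pik3ca between 9.96 and 10.29 and Gsk3b between 9.86 and 10.26.

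At day 25, PTU left the members of wild type testes without a call: 0 of 31 passed with limma, 0% of all 29599 probe sets did, and 1 member and 1724 of all had an unadjusted p under 0.05. In heterozygous testes 5 members rose and 2 fell, where 13.1% of all were called; 1 call was left without unexposed array 2 and 1 without exposed array 2 of that genotype. In homozygous testes 18 rose and 3 fell, where 65.8% of all were called, with a median of 0.47 for members and 0.08 for all. The homozygous minus wild type contrast with PTU gave 18 higher and 2 lower (57.3% of all), and the difference of the PTU effects of homozygous and wild type testes 17 higher and 1 lower (53.2% of all). All of these homozygous results rest on the 2 exposed homozygous arrays; without the second of them the counts of called members were 16 in place of 21, 11 in place of 20 and 12 in place of 18, the lone array being assumed to vary like the other groups. Limma's array weights were lowest in these 2 arrays, at 0.245 each (others 0.435 to 2.7). The weighted fit called 12 members in place of 20 in homozygous minus wild type with PTU. The shares of members called in the homozygous contrasts lie near those of all probe sets.

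**Figure D3:**
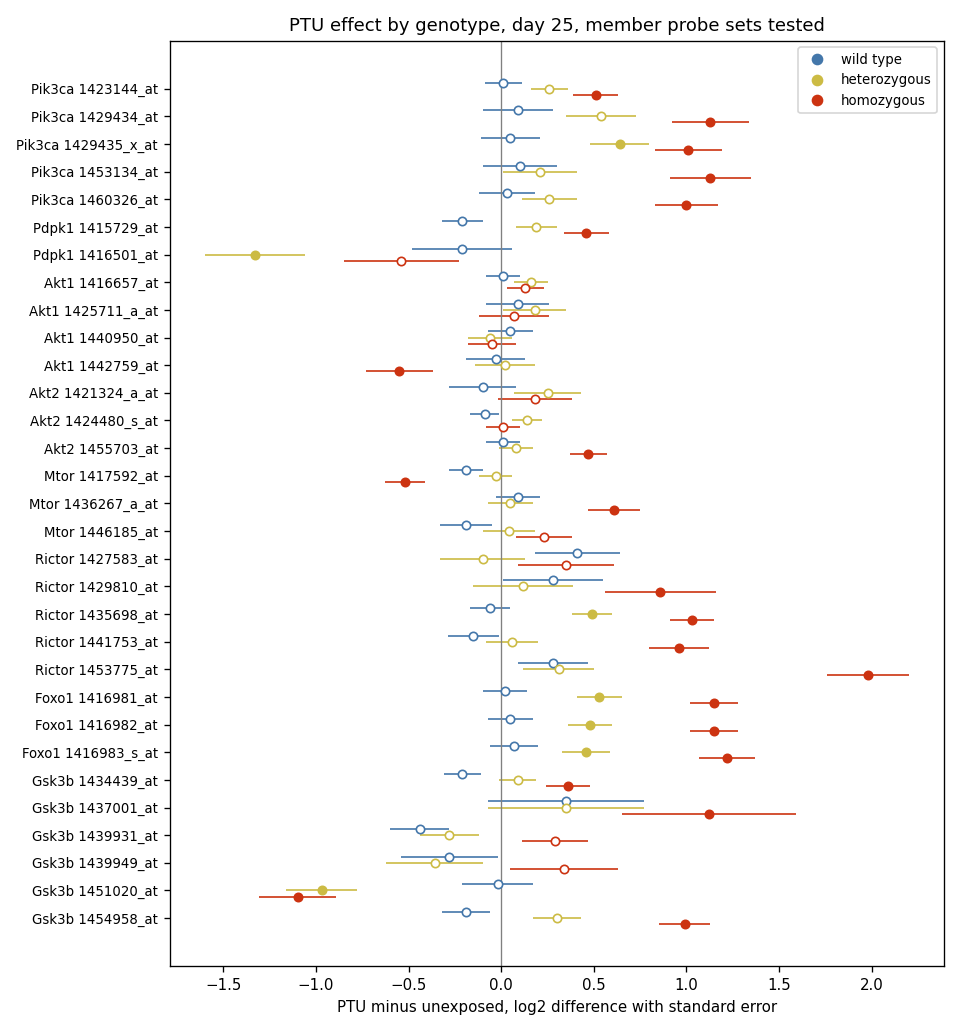
PTU minus unexposed log2 difference of each of the 31 member probe sets tested at day 25, by genotype, with limma's standard error; filled points passed an adjusted p of 0.05. No wild type point is filled, and 18 homozygous points are filled to the right of 0 and 3 to the left.

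Foxo1 rose in all 3 of its tested probe sets. Its 1416981_at read 8.78, 8.75 and 8.78 in unexposed and 9.77 and 10.06 in exposed homozygous testes, while wild type read 8.62, 8.77 and 8.84 unexposed and 8.78, 8.61 and 8.9 exposed. The 2 exposed homozygous arrays lay above all other 15. The PTU effect in homozygous testes was 1.15 ± 0.13 (adjusted p = 2.42e-06), and those of 1416982_at and 1416983_s_at were 1.15 and 1.22. In heterozygous testes 1416981_at read 8.67, 8.27 and 8.39 unexposed and 9.04, 9.01 and 8.87 exposed (0.53 ± 0.12, adjusted p = 0.00998), and the other probe sets differed by 0.48 and 0.46, all called. Spermatogonia markers were higher too, 6 of 6 in homozygous testes with PTU (median 1.22), but 1 of 6 in heterozygous testes (0.34). Of 7 Sertoli cell markers 5 were higher and 1 lower with PTU in homozygous testes (0.72), and 1 was higher in heterozygous testes (0.24). Peritubular markers were higher in 2 of 2 in both genotypes (1.26 and 0.58). The part of these cell types in the member differences of day 25 was not tested.

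Rictor, which lets the second mTOR complex phosphorylate Akt, rose in 4 of 5 probe sets with PTU in homozygous testes. Probe set 1453775_at read 6.67, 7.04 and 6.57 unexposed and 8.28 and 9.21 exposed there, against 7.21, 7.15 and 7.21 unexposed and 7.34, 7.39 and 7.68 exposed in wild type. The exposed homozygous arrays were again above all others, at 1.98 ± 0.22 over unexposed (adjusted p = 1.87e-06). Probe set 1435698_at rose by 1.03 ± 0.12 and 1441753_at by 0.96 ± 0.16 (adjusted p = 4.37e-06 and 8.38e-05), and 1429810_at by 0.86 ± 0.30 (adjusted p = 0.0202), where only the second exposed array, at 6.39, stood above the rest and the first read 4.89. The dim 1427583_at differed by 0.35 ± 0.26 and was not called.

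Pik3ca, the PI3K subunit upstream of Akt, rose in all 5 tested probe sets. Its 1460326_at read 8.51, 8.68 and 8.64 in unexposed and 9.33 and 9.89 in exposed homozygous testes (1.00 ± 0.17, adjusted p = 0.000102), and 8.47, 8.54 and 8.69 in unexposed and 8.47, 8.68 and 8.64 in exposed wild type. The groups of homozygous mice were apart and those of wild type mice overlapped. The other probe sets rose by 0.51 to 1.13. In heterozygous testes 1429435_x_at rose by 0.64 ± 0.16 (adjusted p = 0.0188), from 6.33, 6.34 and 6.89 to 7.14, 7.28 and 7.05, and Rictor 1435698_at by 0.49 ± 0.11 (adjusted p = 0.0124).

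Akt2, the second Akt kinase, differed between probe sets. With PTU, 1455703_at read 7.47 and 7.82 in homozygous against 7.12, 7.21 and 7.18 in unexposed homozygous testes (0.47 ± 0.10, adjusted p = 0.000548), and all other arrays lay at or below 7.35. Probe set 1421324_a_at fell with the homozygous genotype at both exposures. It read 9.11, 9.21 and 9.17 in unexposed and 9.01, 9.18 and 8.99 in exposed wild type, and 8.08, 8.61 and 8.31, then 8.78 and 8.25, in homozygous testes. No homozygous array reached a wild type array, and the averaged difference was -0.69 ± 0.13 (adjusted p = 0.00124), or -0.19 (adjusted p = 0.901) with the actin covariate. The brightest Akt2 probe set, 1424480_s_at, differed by -0.05 ± 0.06.

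Without PTU, 1 member probe set of 31 was higher and 3 lower in homozygous than in wild type testes of day 25, beside 13.6% of all. The higher one and 1 of the lower ones were both Gsk3b, the kinase that Akt inhibits. Gsk3b 1451020_at read 9.62, 9.32 and 9.26 in wild type and 9.88, 10.08 and 10.22 in homozygous testes (0.66 ± 0.19, adjusted p = 0.0353). Gsk3b 1454958_at read 8.82, 8.66 and 8.8 in wild type and 8.13, 7.98 and 8.24 in homozygous testes (-0.64 ± 0.13, adjusted p = 0.00824). Neither pair of groups overlapped, so the 2 probe sets of 1 gene were called in opposite directions. The remaining pair of lower probe sets was Akt1 1425711_a_at (-0.78 ± 0.17, adjusted p = 0.0117) and Akt2 1421324_a_at (-0.83 ± 0.18, adjusted p = 0.0121). Gsk3b 1451020_at lost its call in 6 of 15 alternatives, and 1454958_at in 0 of 14.

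Against unexposed homozygous testes, Gsk3b 1451020_at fell and 1454958_at rose in exposed homozygous testes. Probe set 1451020_at read 8.79 and 9.14 there (-1.10 ± 0.21 against unexposed, adjusted p = 0.00036) and 1454958_at 8.94 and 9.27 (0.99 ± 0.14, adjusted p = 2.13e-05). In heterozygous testes 1451020_at read 9.77, 10.41 and 10.56 unexposed and 9.48, 8.93 and 9.42 exposed (-0.97 ± 0.19, adjusted p = 0.00692). Pdpk1 1416501_at did the same, from 9.13, 10.11 and 10.42 to 8.67, 8.27 and 8.72 (-1.33 ± 0.27, adjusted p = 0.00805), while Pdpk1 1415729_at read 10, 9.92 and 9.81 against 10, 10.14 and 10.15 (0.19 ± 0.11, not called). For both falling probe sets the unexposed heterozygous arrays 2 and 3 were the highest of all 17.

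The 4 dimmer Gsk3b probe sets moved less evenly. Between exposed homozygous and exposed wild type testes 1439931_at differed by 0.82 ± 0.18 (adjusted p = 0.00111), with readings of 7.64 to 7.96 against 6.8 to 7.19, and 1434439_at by 0.36 ± 0.12 (adjusted p = 0.0151). Probe set 1439949_at differed by 0.67 ± 0.29 and was not called (adjusted p = 0.0605). Probe set 1437001_at was called for PTU in homozygous testes (1.12 ± 0.47, adjusted p = 0.0487), but its exposed arrays (7.54 and 9.19) overlapped the unexposed ones (6.06 to 8.06) and the call was lost in 7 of 12 alternatives.

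The spermatid marker mean varied in the same arrays. It was 11.87, 13.22 and 13.51 in unexposed and 10.1, 7.87 and 10.13 in exposed heterozygous testes, 12.67, 11.79 and 12.59 in unexposed and 5.87 and 5.44 in exposed homozygous testes, and 11.28, 8.95 and 8.83 in unexposed and 9.71, 8.9 and 8.18 in exposed wild type. The wild type array with the highest spermatid mean, unexposed array 1, also had the highest wild type reading of Gsk3b 1451020_at (9.62) and Pdpk1 1416501_at (9.2). In exposed homozygous testes, with the lowest spermatid means, Pdpk1 1416501_at read 8.67 to 9.13. Its mean of 8.9 there was above those of exposed wild type (8.54) and exposed heterozygous testes (8.56). All 5 spermatid markers fell with PTU in heterozygous testes (median -3.95). The part of spermatid content in these readings was not tested.

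**Figure D4:**
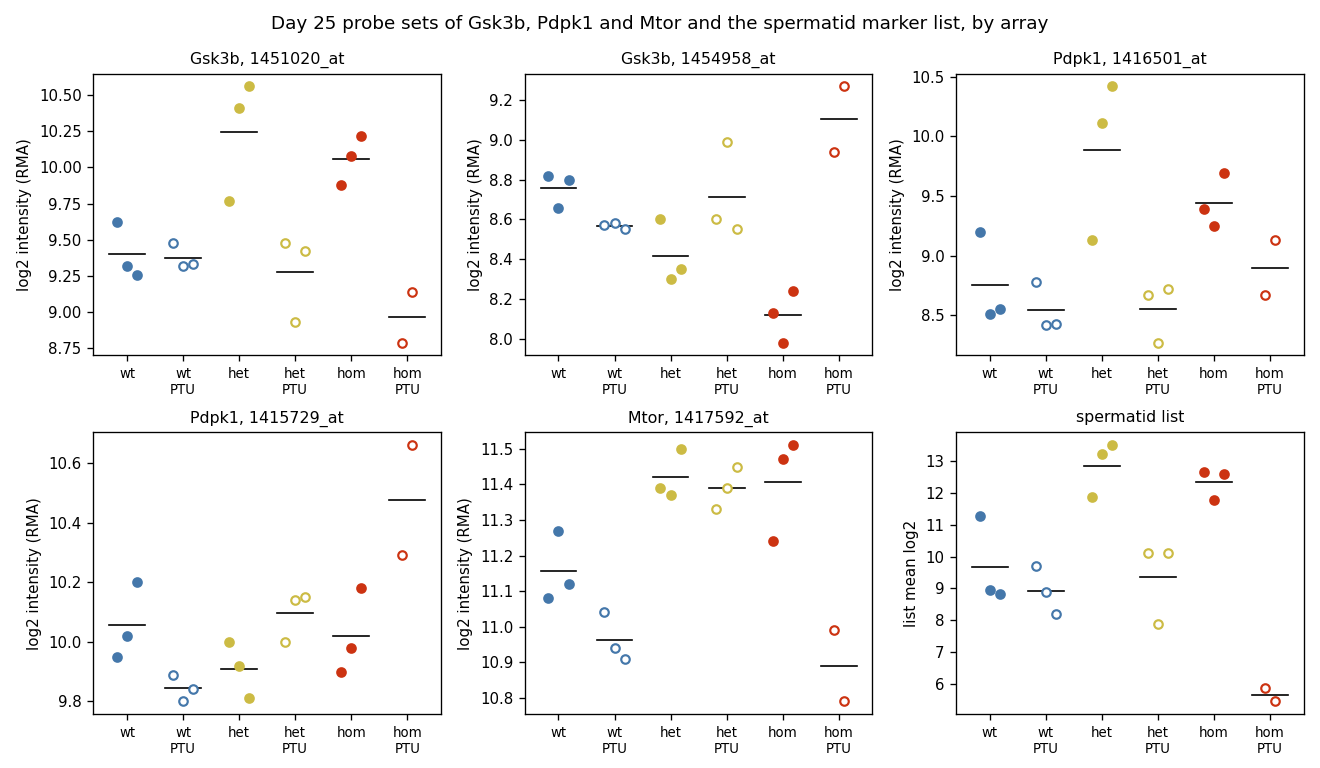
Log2 intensity of 5 day 25 probe sets of Gsk3b, Pdpk1 and Mtor, and the mean of 5 spermatid markers, by array; points are arrays (open with PTU) and lines group means. Gsk3b 1451020_at and Pdpk1 1416501_at are highest in unexposed heterozygous arrays 2 and 3, as is the spermatid mean, while Gsk3b 1454958_at is lowest in unexposed homozygous arrays.

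Mtor probe sets also parted. The bright 1417592_at read 11.24, 11.47 and 11.51 in unexposed and 10.99 and 10.79 in exposed homozygous testes (-0.52 ± 0.11, adjusted p = 0.000475), whereas 1436267_a_at read 7.53, 7.86 and 7.89 against 8.32 and 8.42 (0.61 ± 0.14, adjusted p = 0.00131). In each case the exposed and unexposed arrays were apart. The dim 1446185_at was higher in exposed homozygous than in exposed wild type testes, at 5.76 to 6.29 against 5.38 to 5.7 (0.48 ± 0.15, adjusted p = 0.0145), a call lost in 4 of 11 alternatives and reversed in 1. The heterozygous minus wild type contrast called 1 member higher and 2 lower, beside 16.1% of all, and 6 without unexposed heterozygous array 1. Mtor 1417592_at was higher, at 11.37 to 11.5 in unexposed and 11.33 to 11.45 in exposed heterozygous against 11.08 to 11.27 and 10.91 to 11.04 in wild type testes (0.34 ± 0.07, adjusted p = 0.00456). Pik3ca 1429435_x_at (-0.48 ± 0.11, adjusted p = 0.0115) and Akt1 1425711_a_at were lower.

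The averaged contrasts of day 25 share the exposed homozygous arrays. Homozygous minus wild type called 12 members higher and 2 lower (41.5% of all), homozygous minus heterozygous 12 higher and 4 lower (54.5% of all), and PTU over genotypes 15 higher and 3 lower (57.5% of all). The difference of the PTU effects of heterozygous and wild type testes called 0 of 31 with limma, 0% of all, while 8 members and 4379 of all had an unadjusted p under 0.05. With beta-actin 3' minus 5' as a covariate, homozygous minus wild type called 0 members averaged and 1 with PTU, and homozygous minus heterozygous 0. The covariate itself split homozygous arrays from the others, so these lost calls do not separate RNA quality from genotype. PTU in homozygous testes, a contrast within the genotype, called 19 with the covariate, and the homozygous interaction 17.

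Other genes of the pathway were read from a list of 63, of which 59 are on each array and 59 (day 15) or 58 (day 25) were tested, each by its brightest probe set. In unexposed homozygous testes of day 15, 11 were higher and 4 lower than in wild type (median 0.14, all 0.08), where 28.6% of all probe sets were called, a share no smaller than that of the list. Higher were Grb2, an adaptor of receptor tyrosine kinases (0.45 ± 0.10, adjusted p = 0.00211), the lipid phosphatase gene Inppl1 (0.36 ± 0.08), and the receptors Igf1r (0.54 ± 0.13) and Pdgfra (0.55 ± 0.14). Lower were Tbc1d1, an Akt substrate of glucose transport (-1.04 ± 0.19, adjusted p = 0.000609), the phosphatase gene Inpp5d (-0.54 ± 0.14), Bad, a death factor that Akt phosphorylates (-0.33 ± 0.10), and Mdm2 (-0.40 ± 0.13), the ligase of p53. PTU in wild type raised 2 and lowered 2 of the 59, beside 15.3% of all: Grb2 by 0.36 and the Akt phosphatase gene Phlpp1 by 0.37, and Bad (-0.44) and Inpp5d (-0.59). Averaged over genotypes, where 11.9% of all were called, PTU lowered 4, namely Deptor, an mTOR inhibitor (-0.43 ± 0.06, adjusted p = 0.000511), Sgk1, a kinase related to Akt (-0.52 ± 0.11), Tbc1d4 (-0.34 ± 0.07) and Inpp5d (-0.34 ± 0.08), and raised 2, Rheb, the activator of mTOR (0.36 ± 0.10), and the adaptor gene Gab1 (0.18 ± 0.05). Macrophage markers were lower beside Inpp5d, 4 of 5 with PTU in wild type (median -0.48) and 5 of 5 averaged over genotypes (-0.54). Their means were 8.01 to 8.34 in unexposed and 7.46 to 7.77 in exposed wild type. Inpp5d was also lower in homozygous than in wild type testes, unexposed (-0.54) and averaged over exposure (-0.34). There 1 of 5 macrophage markers was lower in each contrast (medians -0.3 and -0.23). The part of macrophages in the Inpp5d differences was not tested. Averaged over exposure, 5 of the 59 were higher in homozygous testes and 4 lower, beside 28.1% of all, with Pik3cd (0.21 ± 0.06) and Pik3r3 (-0.24 ± 0.08) as PI3K subunits on either side.

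At day 25, 1 of 58 was higher and 6 lower in unexposed homozygous than in wild type testes, near the 13.6% of all probe sets called there: Phlpp1 was higher (0.64 ± 0.18, adjusted p = 0.0331), and Grb2 (-0.50 ± 0.12), Akt1s1, an mTOR inhibitor that Akt phosphorylates (-0.45 ± 0.11), Ppp2ca (-0.39 ± 0.10) and the cell cycle inhibitor Cdkn1b (-0.68 ± 0.18) were lower. PTU in wild type called 0 of 58. In exposed homozygous testes 34 rose and 6 fell against unexposed ones (median 0.38, all 0.08), and 33 were higher and 4 lower than in exposed wild type. These shares lie near the 65.8% and 57.3% of all probe sets called. Averaged over exposure, 23 of 58 were higher and 5 lower in homozygous testes, beside 41.5% of all. Among the higher were Deptor (0.76 ± 0.10, adjusted p = 0.00011), Gab1 (0.54 ± 0.07), Pik3c2a (0.38 ± 0.06) and Foxo3 (0.64 ± 0.11). Bad (-0.43 ± 0.09), Gsk3a (-0.26 ± 0.07), Akt1s1 (-0.30 ± 0.08) and Mapkap1 (-0.31 ± 0.09), a subunit of the Rictor complex, were among the lower. PTU averaged over genotypes raised 34 and lowered 6, beside 57.5% of all. Among them Pik3c2a rose by 0.50, Sgk3 by 0.55, Ppp2ca by 0.54 and Tbc1d4 by 0.59, and Inpp5d (-0.40), Phlpp1 (-0.53), Cdkn1a (-0.34) and Pik3cd (-0.66) fell. Deptor means were 8.06 to 8.32 in 5 groups and 9.47 in exposed homozygous testes. Both averaged contrasts include that last group. Pik3c2a averaged 10.26 in unexposed wild type, 10.16 in unexposed homozygous and 11.16 in exposed homozygous testes, and Bad 11.18, 11.14 and 10.39. Akt1s1 was lower without PTU already (10.47 in wild type, 10.03 in homozygous). With PTU in wild type, Tbc1d4 went from 7.79 to 7.82 and Inpp5d from 8.32 to 8.34, while Sgk3 went from 9.94 to 10.25 and Cdkn1a from 8.49 to 8.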

How the data were processed

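Whole testis RNA of mice was hybridised to 35 arrays. The authors deposited log2 values normalised with RMA (robust multi-array averaging), per the submitters' processing notes; its version and the annotation used are not given in the sources used here. Values were used as deposited; they ran from 2.19 to 14.95 at day 15 and from 2.81 to 15.14 at day 25, with array medians of 7.02 to 7.12 and 6.46 to 6.55. Their precision is limited by the number of arrays. Symbols came from GEO's platform annotation: 21789 probe sets of day 15 and 34958 of day 25 have 1 symbol, 1621 and 932 several, and 12146 and 9211 none; 21698 and 34754 matched a RefSeq gene by Entrez ID, which updated 0 symbols. Members, pathway and marker lists were chosen with earlier results of these data known.

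Each age was fitted alone with limma 3.58.1 in R 4.3.3 on 6 group means and 11 contrasts. Tested were probe sets with 1 symbol above the 25th percentile of all values (5.56 and 4.76) in at least 2 arrays, 18307 and 29599 in all, with Benjamini-Hochberg adjustment within a contrast. The fit was tested on simulated data. The pathway list named up to 4 risen and 4 fallen genes with the smallest p per averaged or unexposed genotype contrast, PTU averaged and PTU in wild type. Marker lists are spermatogonia, spermatocytes, spermatids, Sertoli, Leydig and peritubular cells, macrophages, blood, fat and epididymis. At day 25 the fat mean reached 10.15 in exposed wild type and 8.67 in exposed homozygous testes, with 5.02 to 5.3 in unexposed wild type. The Sertoli mean was 9.61 to 10.18 over all arrays, with 9.79 to 9.93 in unexposed and 10.15 to 10.18 in exposed homozygous testes. In the latter 5 of 7 Sertoli markers were higher and 1 lower than unexposed (median 0.72), and 5 higher and 2 lower than in exposed wild type (0.51).

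The labels' sample numbers carry no litter or batch. Same-numbered arrays deviated together in every pair (correlation over 0.1) only for homozygous minus wild type with PTU (0.146 to 0.552) and PTU in heterozygous (0.398 to 0.448) at day 15, and PTU in wild type at day 25 (0.26 to 0.382). Alternatives were quantile normalization, 1 probe set per gene, dropping the filter or raising it to the 50th percentile, array weights, only the groups compared, a replicate block, leaving out each array, an array set block and no Spink8 arrays (day 15), and beta-actin 3' minus 5' as a covariate (day 25); a fit without both exposed homozygous arrays was added after seeing the data.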

Additional observations from a re-analysis of the deposited data

Results flagged for a closer look

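The PTU effect of homozygous testes differed from that of wild type testes, by the interaction term of limma, in 19 member probe sets. At day 15 this was Foxo1 10491962 (-0.68). At day 25 the largest were Rictor 1453775_at (1.71), 1441753_at (1.11) and 1435698_at (1.09), Foxo1 1416983_s_at (1.15), 1416981_at (1.13) and 1416982_at (1.1), and Gsk3b 1454958_at (1.18) with Gsk3b 1451020_at in the other direction (-1.07). Pik3ca followed in 5 probe sets, 1429434_at (1.04), 1453134_at (1.03), 1460326_at (0.97), 1429435_x_at (0.96) and 1423144_at (0.49). The rest were Gsk3b 1439931_at (0.72) and 1434439_at (0.57), Pdpk1 1415729_at (0.67), Mtor 1436267_a_at (0.52) and Akt2 1455703_at (0.45). The day 25 values all rest on 2 exposed homozygous arrays, in which spermatid markers averaged 5.44 to 5.87. No group has more than 3 arrays, so single arrays were not tested as outliers within a group.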

How the results depend on the processing

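At day 15 the 6 member calls had 119 alternative values, of which 89 kept direction and call, 30 lost the call and 0 changed direction; at day 25 the 121 calls had 2013, of which 1773 kept both, 231 lost the call and 9 changed direction. The cause was not tested, except that 1 probe set per gene leaves fewer probe sets.

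All 9 reversals came with beta-actin 3' minus 5' as a covariate. In homozygous minus wild type with PTU these were Akt2 1421324_a_at (0.02), Akt1 1425711_a_at (0.02), Pik3ca 1429434_at (-0.11) and Mtor 1446185_at (-0.23). Averaged over exposure they were Pdpk1 1415729_at (-0.11) and Mtor 1446185_at (-0.35), and in homozygous minus heterozygous Pdpk1 1415729_at (-0.1), Akt1 1425711_a_at (0.18) and Pik3ca 1429434_at (-0.02). That covariate left 1 member call in homozygous minus wild type with PTU, 0 averaged and 0 in homozygous minus heterozygous. In these contrasts it cannot separate RNA quality from genotype.

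Counts of member calls at day 15 moved as follows. The fit without the Spink8 arrays leaves only array 1 of unexposed wild type, which is then assumed to vary like the other groups. Homozygous minus wild type without PTU (1) became 2 with the filter at the 50th percentile, quantile normalization or the replicate block, 5 with array weights, 3 with the array set as a block and 0 without the Spink8 arrays. Averaged over exposure (2) it became 1 with no filter, quantile normalization or only the groups compared, 4 with array weights, and 0 with the array set as a block or without the Spink8 arrays; with PTU (0) it became 1 with array weights. PTU in wild type (1) became 3 with array weights, 2 with only the groups compared and 0 without the Spink8 arrays. PTU in heterozygous (0) became 1 with array weights, and PTU in homozygous (0) became 1 with the 50th percentile, array weights or the replicate block. PTU averaged (1) became 2 with the 50th percentile, 1 probe set per gene or the array set block, 3 with array weights and 0 without the Spink8 arrays. The homozygous interaction (1) became 2 with the 50th percentile, array weights, only the groups compared, the replicate block or the array set block, and 0 without the Spink8 arrays; the heterozygous one (0) became 2 with array weights.

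At day 25, with 1 probe set per gene, homozygous minus wild type gave 1 (main 4) without PTU, 4 (20) with PTU and 3 (14) averaged, heterozygous minus wild type 1 (3), homozygous minus heterozygous 6 (16), PTU 3 (7) in heterozygous, 6 (21) in homozygous and 5 (18) averaged, and the homozygous interaction 6 (18). Array weights gave 10, 12 and 9 for homozygous minus wild type without PTU, with PTU and averaged, 8 for heterozygous minus wild type and 2 (0) for the heterozygous interaction. Without both exposed homozygous arrays, heterozygous minus wild type gave 5.

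Leaving out single arrays gave, at day 15, 1 to 2 calls in homozygous minus wild type without PTU, 0 to 2 with PTU and 0 to 5 averaged, 0 to 1 for PTU in wild type, 0 to 2 in homozygous and 1 to 2 averaged, and 1 to 2 for the homozygous interaction. At day 25 it gave 2 to 4, 11 to 22 and 8 to 18 for homozygous minus wild type without PTU, with PTU and averaged, 2 to 6 for heterozygous minus wild type, 11 to 19 for homozygous minus heterozygous, 1 to 9 for PTU in heterozygous, 16 to 22 in homozygous and 17 to 21 averaged, 12 to 23 for the homozygous and 0 to 3 for the heterozygous interaction. PTU in heterozygous fell to 1 without unexposed or exposed heterozygous array 2.

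Against the mean of the other Akt1 probe sets, 1440950_at differed by 0.28 in homozygous and 0.36 in heterozygous arrays and passed, which it did not against the brightest (0.05 and 0.29). Leaving out single arrays, 1425711_a_at ranged from -0.89 to -0.57 and from -0.31 to -0.22, and 1440950_at from 0.01 to 0.1 and from 0.23 to 0.34. Where same-numbered arrays deviated together, the replicate block called 0, 0 and 0 members, as without it. Precision is limited by 2 or 3 arrays per group.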
